A study of Mus musculus with 6 samples.

Results

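The 10 genes described here encode the core of prostaglandin and leukotriene synthesis, with 1 prostaglandin receptor. They are the cyclooxygenases Ptgs1 and Ptgs2, the prostaglandin E synthases Ptges and Ptges2, the prostaglandin D synthase Hpgds, the breakdown enzyme Hpgd, the prostaglandin E2 receptor Ptger4, and the leukotriene genes Alox5, Alox5ap and Ltc4s. They were taken by name from 19949 genes, and all 10 had enough counts to be among the 15066 genes tested. Both groups were BALB/c mice aged 6 to 8 weeks that drank 3% dextran sulfate sodium (DSS), an agent that injures the colonic epithelium, for 3 days. One group carried STAT6-/-, a disruption of the gene for the transcription factor downstream of interleukin-4 and interleukin-13, and the other was wild-type (WT). RNA came from washed pieces of colon whose inner surface had been scraped free of mucus, with 3 libraries per genotype. The labels name the proximal part as the piece collected. Mice without DSS are not analysed here, so no level can be read as a response to DSS.

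Arachidonic acid freed from membranes by phospholipases is turned into prostaglandin H2 by a cyclooxygenase, and terminal synthases then make prostaglandin E2, prostaglandin D2 and related lipids. Prostaglandin E2 acts through 4 receptors, of which EP4, made from Ptger4, raises cyclic AMP and is known in the colon for epithelial protection during injury, and 15-hydroxyprostaglandin dehydrogenase, made from Hpgd, inactivates it. In the other branch 5-lipoxygenase, helped by its activating protein, makes leukotriene A4, which leukotriene C4 synthase joins to glutathione.

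The libraries held 17122315 to 19555450 expected counts. Stat6 stood at 49.9, 38.5 and 53.2 CPM (a count relative to the library's total, after TMM normalization) in STAT6-/- replicates 1, 2 and 3 and at 91.7, 104 and 88.8 in WT, a log2 fold change of -1.01 (adjusted p = 0.0134). That call was lost without WT replicate 2 or 3 (adjusted p up to 0.0725). Which part of Stat6 is disrupted is not given in the sources used here, so reads from elsewhere in the gene may remain and the level alone does not check the labels. The Y-linked gene Ddx3y stood at 50.9 CPM or more in each STAT6-/- library and at 0.124 or less in each WT library, and Xist did the opposite, with 0.992 CPM or less against 352 or more. Eif2s3y, Uty and Kdm5d, also Y-linked, had no counts in WT. Genotype and sex therefore cannot be told apart in any comparison below. STAT6-/- replicate 2 stood apart from its group: its Spearman correlation over genes was 0.953 with WT replicate 1, against 0.946 and 0.94 with STAT6-/- replicates 1 and 3. It was the lowest of the STAT6-/- libraries for 7 of the 10 genes and the highest for 2, Hpgd and Ptges2. The colon epithelial markers Epcam, Vil1, Krt8 and Lgals4 were abundant in all 6 libraries, at 367 CPM or more each. Nothing in the labels says that replicates were separate animals, so p-values measure the spread between these libraries.

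The promoters of 4 genes are shown, each with the 250 bases before and the 50 bases after the RefSeq transcription start (GRCm38.p6, the assembly of mm10), read 5′ to 3′ on the gene's strand. Hpgd and Ptger4 are shown because they alone of the 10 genes passed the test between genotypes, and Ptgs2 because it is the inducible cyclooxygenase. Ptges is shown because its window alone, among those searched, held a STAT6-type motif. Capitals mark motif matches on either strand.

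Hpgd (chr8:56294302-56294601, plus strand): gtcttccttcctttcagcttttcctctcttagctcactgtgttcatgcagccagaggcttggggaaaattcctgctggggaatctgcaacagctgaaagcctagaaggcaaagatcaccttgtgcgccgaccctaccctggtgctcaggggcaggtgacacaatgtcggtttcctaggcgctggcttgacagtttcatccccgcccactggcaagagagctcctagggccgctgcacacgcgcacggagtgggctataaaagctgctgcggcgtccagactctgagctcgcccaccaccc

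Ptger4 (chr15:5244138-5244437, minus strand): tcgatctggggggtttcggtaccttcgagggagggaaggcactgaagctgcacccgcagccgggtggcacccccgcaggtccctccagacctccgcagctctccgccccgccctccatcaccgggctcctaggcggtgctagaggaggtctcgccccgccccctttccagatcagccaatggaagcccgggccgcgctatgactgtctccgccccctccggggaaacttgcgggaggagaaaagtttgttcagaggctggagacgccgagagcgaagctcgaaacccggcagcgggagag

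Ptgs2 (chr1:150099781-150100080, plus strand): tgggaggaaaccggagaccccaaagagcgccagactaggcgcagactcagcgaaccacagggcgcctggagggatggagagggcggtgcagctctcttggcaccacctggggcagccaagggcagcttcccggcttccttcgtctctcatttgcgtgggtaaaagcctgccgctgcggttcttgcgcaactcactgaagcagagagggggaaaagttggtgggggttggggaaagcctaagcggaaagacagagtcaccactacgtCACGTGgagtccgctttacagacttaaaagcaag

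Ptges (chr2:30903248-30903547, minus strand): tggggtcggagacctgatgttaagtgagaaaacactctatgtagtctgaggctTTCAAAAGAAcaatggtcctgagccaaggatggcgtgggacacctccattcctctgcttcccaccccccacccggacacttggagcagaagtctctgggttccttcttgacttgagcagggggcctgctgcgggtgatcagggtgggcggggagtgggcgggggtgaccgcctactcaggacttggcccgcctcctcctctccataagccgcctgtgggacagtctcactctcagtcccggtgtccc

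Of the 10 genes, 9 had a promoter in the table, all but Alox5ap. Each has 1 start site there, and the annotated span of some genes, Ptges and Ptgs1 among them, extends upstream of it. The 9 windows were searched for a STAT6-type site (TTCNNNNGAA), a cyclic AMP response element (TGACGTCA), an E-box (CACGTG) and the kappaB site, on both strands. No 2 matches overlapped. The Ptges window held the only STAT6-type match, starting 197 bases before the start site, and 6.95% of 32851 promoters of the same length held one. E-boxes were found in Ptgs2, 16 bases after the start, and in Ptges2, 77 bases before it, where 7.15% of all promoters had one. No window of the 9 held the full TGACGTCA or a kappaB match, which 1.79% and 8.46% of all promoters held. Shorter or variant forms of the cyclic AMP response element were not searched for. The matches describe letters in these windows alone.

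Hpgd fell and Ptger4 rose in the STAT6-/- colons, and the other 8 genes did not pass the test. Across all genes 22.9% passed at an adjusted p below 0.05 (quasi-likelihood F test of edgeR, adjusted over all tested genes), 11.4% higher and 11.5% lower in STAT6-/-, so 1 higher and 1 lower of 10 is close to the general share. That share rests on single libraries: 1718 genes higher and 1731 lower became 1035 and 751 when STAT6-/- replicate 1 was left out and 2750 and 2440 when STAT6-/- replicate 2 was. Leaving out WT replicate 1, 2 or 3 gave 656 and 751, 21 and 10, or 12 and 6. The same 2 genes were the ones whose groups did not overlap in CPM, where 22% of all genes lay wholly higher and 24.5% wholly lower in STAT6-/-. The median log2 fold change of the 10 genes was -0.10, against 0.01 over all tested genes. Only these 2 of the 10 genes had an unadjusted p under 0.05, against 40.3% of all tested genes.

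**Figure D1:**
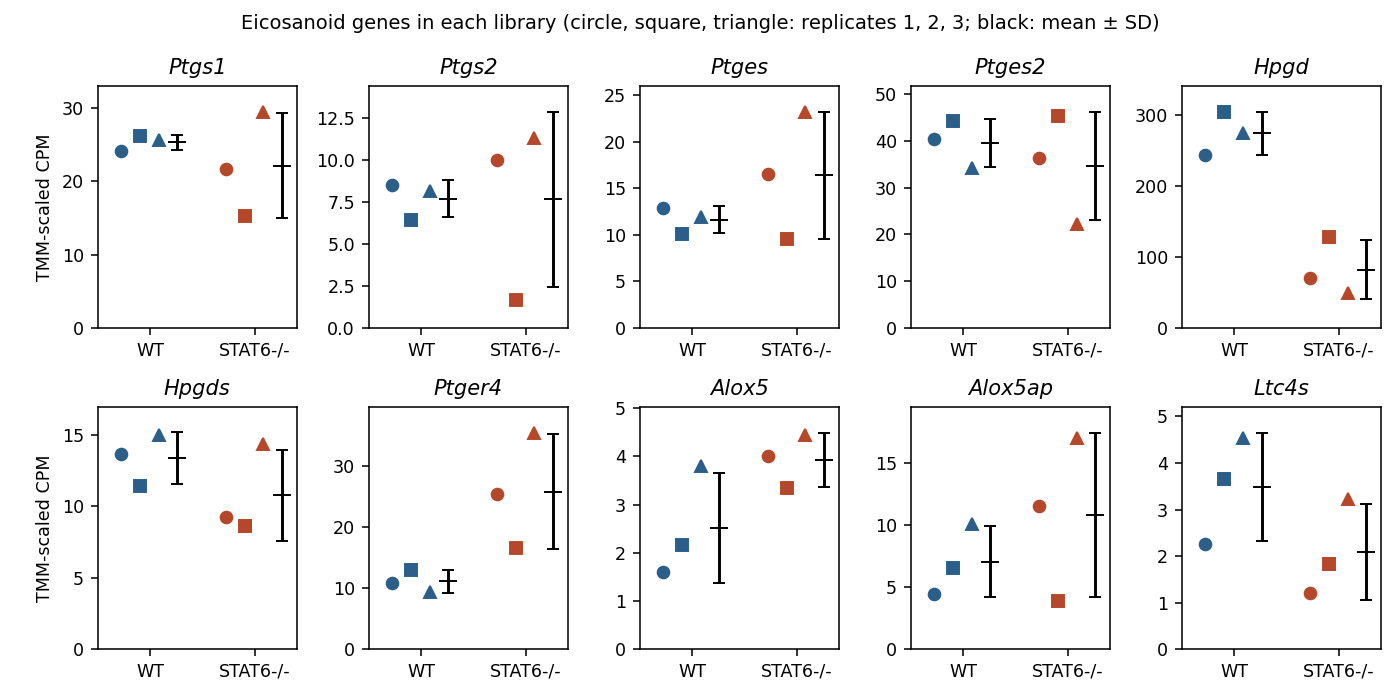
TMM-scaled CPM of each of the 10 genes in the 3 WT libraries (blue) and the 3 STAT6-/- libraries (red), on linear axes from 0. Symbols mark replicates 1, 2 and 3, and black bars the mean ± SD. All STAT6-/- points lie below all WT points for Hpgd (128 against 243 at the closest) and above them for Ptger4 (16.6 against 13).

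Hpgd encodes the first and rate-setting enzyme of prostaglandin E2 inactivation. It lies on chromosome 8 (56294552 to 56321046) and is represented by 1 RefSeq transcript. It stood at 70.1, 128 and 48.6 CPM in STAT6-/- replicates 1, 2 and 3 and at 243, 304 and 275 in WT. Every STAT6-/- library lay below every WT library, replicate 2 being the closest. The group means were 82.2 ± 41 CPM against 274 ± 30.5 (SD, n = 3 each), a 3.34-fold lower level in STAT6-/- (log2 fold change -1.74 ± 0.35 SE, 95% interval -2.57 to -0.90, edgeR adjusted p = 0.0201). Hpgd lost its call without STAT6-/- replicate 1 (log2 fold change -1.59, adjusted p = 0.0605), without WT replicate 2 (-1.66, adjusted p = 0.0852) and without WT replicate 3 (-1.74, adjusted p = 0.0839). Without STAT6-/- replicate 2 it was -2.18 (adjusted p = 0.00308).

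By FPKM, the authors' length-scaled level, Hpgd was the most abundant of the 10 genes in every library. It stood at 156 ± 14.1 FPKM in WT and 48.8 ± 23.6 in STAT6-/- (SD, n = 3), and its range did not meet that of the next gene, Ptges2, in either group. Hpgd is made by several cell types, among them colonic epithelium. The surface colonocyte markers did not move one way. Of 6, Car1, a carbonic anhydrase, fell from 1500 to 1920 CPM in WT to 108 to 224 in STAT6-/- and Krt20, a keratin of mature surface cells, rose, with the summed list at 3560 to 5700 CPM against 6020 to 8680. Slc26a3 and Slc20a1 were not called but also lay wholly lower in STAT6-/-, and Car4 and Aqp8 overlapped between groups. The groups thus did not overlap in 3 of 6 downward and 1 upward, against 24.5% and 22% of all tested genes. Of 6 smooth muscle markers, of which Tagln was the most abundant, 5 fell, where 11.5% of all tested genes fell and 11.4% rose. The smooth muscle list summed to 2280 to 5150 CPM in STAT6-/- and 8690 to 10700 in WT. The part of either in the Hpgd difference was not tested, and in bulk tissue fewer cells of a type and less RNA per cell cannot be told apart.

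Ptger4 encodes EP4. It lies on chromosome 15 (5233399 to 5244187) and stood at 25.3, 16.6 and 35.3 CPM in STAT6-/- replicates 1, 2 and 3 and at 10.9, 13 and 9.36 in WT. All STAT6-/- libraries lay above all WT libraries, with replicate 2 nearest to WT. The means were 25.7 ± 9.4 against 11.1 ± 1.81 CPM (SD, n = 3), a 2.32-fold higher level in STAT6-/- (log2 fold change 1.21 ± 0.30 SE, 95% interval 0.51 to 1.92, edgeR adjusted p = 0.0311). The call was lost without STAT6-/- replicate 1 (log2 fold change 1.26, adjusted p = 0.0626). It was also lost without WT replicate 1, 2 or 3 (adjusted p = 0.0875, 0.0975 and 0.127). Without STAT6-/- replicate 2 the log2 fold change was 1.48 (adjusted p = 0.00622).

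The counts of Ptger4 fell on 2 RefSeq transcripts. The transcript NM_008965 took 56.7%, 84.6% and 86.9% of the gene's expected counts in STAT6-/- replicates 1, 2 and 3, and 61.1%, 80.8% and 68.3% in WT, so the division overlapped between genotypes. EP4 is found on immune cells as well as epithelium, whose markers follow. Of all tested genes, 11.4% rose, 11.5% fell and 40.3% had an unadjusted p under 0.05. The T cell markers, of which Cd3g was the most abundant, summed to 75.2, 12 and 26.9 CPM in the STAT6-/- libraries and 15.2 to 16.5 in WT. Cd2 and Cd3e of 5 tested were higher, and 3 had an unadjusted p under 0.05. The B cell markers, of which Cd79a was the most abundant, summed to 322, 25.5 and 57.3 CPM against 30.8 to 46.1, with none of 5 called and 2 at an unadjusted p under 0.05. The epithelial list summed to 14900 to 25200 CPM against 15300 to 19900, with Vil1 of 9 higher. An unadjusted p under 0.05 was found for 6 of the 9, of which Lgals4 alone was lower. The part of these in the Ptger4 difference was not tested.

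Of the other prostaglandin E2 receptors, Ptger1 also rose. It stood at 39.2, 33.7 and 44.3 CPM in STAT6-/- and 14.6, 21.5 and 21.8 in WT, a 2.03-fold higher level (log2 fold change 1.02 ± 0.21 SE, adjusted p = 0.0199), and its call was lost without any 1 WT library (adjusted p up to 0.0797). Ptger2, which like EP4 raises cyclic AMP, overlapped between groups (0.73, adjusted p = 0.373). Ptger3, which lowers it, stood at 1.68 to 5.66 CPM against 5.74 to 11.3 without passing the test (-1.08, adjusted p = 0.143). Of the receptors for other prostanoids, Ptgfr, the prostaglandin F receptor, fell from 1.77 to 3.35 CPM in WT to 0.47 to 1.16 in STAT6-/- (-1.79, adjusted p = 0.0345). That call was lost without STAT6-/- replicate 1 or any 1 WT library, and after correction for GC content and length (-1.58), with adjusted p up to 0.131. Ptgdr, a prostaglandin D2 receptor, had 3, 1 and 8 counts in the STAT6-/- libraries and 0 in each WT library, too few to be tested. In all, 1 of 6 tested receptors besides Ptger4 rose and 1 fell, where 11.4% of all tested genes rose and 11.5% fell. The median log2 fold change of the 6 was 0.16.

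The cyclooxygenases did not pass the test. Ptgs1, the constitutive enzyme, stood at 21.7, 15.3 and 29.5 CPM in STAT6-/- and 24.2, 26.2 and 25.6 in WT. The WT libraries were within a narrow band and the STAT6-/- libraries lay on both sides of it. The log2 fold change was -0.19 ± 0.24 (SE, adjusted p = 0.587), and its 95% interval in fold terms, 0.588 to 1.31 times WT, does not reach a doubling or a halving. Without STAT6-/- replicate 2 it was 0.04 (adjusted p = 0.877).

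Ptgs2, the cyclooxygenase induced by inflammatory signals and growth factors, was the most uneven of the 10 genes. It stood at 10, 1.67 and 11.3 CPM in STAT6-/- replicates 1, 2 and 3, from 215, 32 and 213 expected counts, and at 8.52, 6.45 and 8.17 CPM in WT. STAT6-/- replicates 1 and 3 were above every WT library and replicate 2 was below every one. The log2 fold change was -0.01 ± 0.62 (SE, adjusted p = 0.993), with a 95% interval of 0.361 to 2.73 times WT, so changes in either direction of over 2-fold are within it. Without STAT6-/- replicate 2 it was 0.49 (adjusted p = 0.16), and its sign also differed between scalings. The ratio of Ptgs2 to Ptgs1 in FPKM was 0.298, 0.0702 and 0.245 in STAT6-/- and 0.227, 0.159 and 0.205 in WT. Ptgs1 was thus the more abundant cyclooxygenase per length in all 6 libraries.

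Ptges encodes the inducible membrane prostaglandin E synthase, which is often made together with Ptgs2. It stood at 16.5, 9.55 and 23.2 CPM in STAT6-/- and 12.9, 10.1 and 11.9 in WT. As with Ptgs2, replicates 1 and 3 were above all WT libraries and replicate 2 was below them. The log2 fold change was 0.50 ± 0.33 (SE, 95% interval -0.28 to 1.27, adjusted p = 0.292). Without STAT6-/- replicate 2 it was 0.79 and passed the test (adjusted p = 0.0406), and over the other single-library omissions it ran from 0.21 to 0.57.

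Ptges2, an enzyme of the same reaction without sequence kinship to Ptges, was the second most abundant gene of the 10 by FPKM, at 18 ± 6.24 in STAT6-/- and 19.5 ± 1.51 in WT. Its CPM were 36.3, 45.3 and 22.3 against 40.3, 44.2 and 34.1, with STAT6-/- replicate 3 below all the rest (log2 fold change -0.19 ± 0.26 SE, 0.568 to 1.35 times WT, adjusted p = 0.611). Hpgds, the hematopoietic prostaglandin D synthase of mast cells, some macrophages and tuft cells, stood at 9.29, 8.61 and 14.4 CPM against 13.7, 11.4 and 15. The log2 fold change of Hpgds was -0.31 ± 0.26 (SE, 0.526 to 1.24 times WT, adjusted p = 0.406), so that its interval, like those of Ptgs1 and Ptges2, lies within 2-fold of WT. The ratio of Ptges to Hpgd in FPKM was 0.11, 0.0349 and 0.223 in the STAT6-/- libraries and 0.0247, 0.0155 and 0.0201 in WT, without overlap. Ptges itself overlapped between groups and Hpgd did not, and the part of each in that ratio was not tested.

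**Figure D2:**
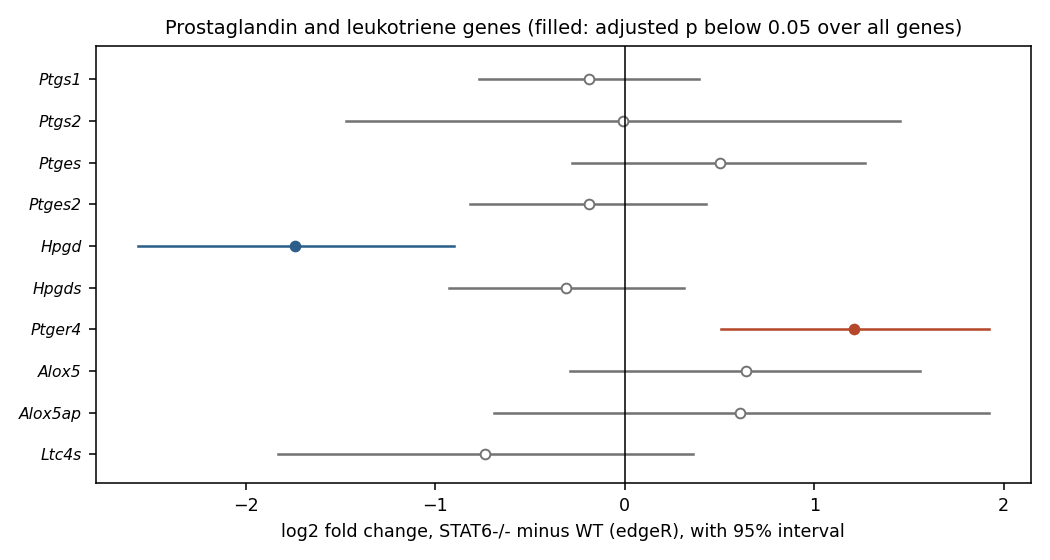
Log2 fold change of STAT6-/- against WT for the 10 genes (x axis), with 95% intervals from edgeR. Filled points passed at an adjusted p below 0.05. The interval of Hpgd (-2.57 to -0.90) and that of Ptger4 (0.51 to 1.92) do not reach 0, and Ptgs2 has the widest interval, from -1.47 to 1.45.

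None of the 3 leukotriene genes passed the test. Alox5, which encodes 5-lipoxygenase, was the least abundant of the 10 by mean FPKM in both groups. It stood at 4.01, 3.34 and 4.44 CPM in STAT6-/- and 1.6, 2.17 and 3.8 in WT, where WT replicate 3 overlapped the STAT6-/- range (log2 fold change 0.64 ± 0.39 SE, 0.82 to 2.95 times WT, adjusted p = 0.26). Without WT replicate 3 it was 1.05 (adjusted p = 0.153) and without WT replicate 1 it was 0.39 (adjusted p = 0.536). Alox5ap, the membrane protein that presents arachidonate to 5-lipoxygenase, stood at 11.5, 3.86 and 17 CPM against 4.49, 6.58 and 10.1. STAT6-/- replicate 2 was the lowest of all 6 libraries (log2 fold change 0.61 ± 0.55 SE, 0.621 to 3.78 times WT, adjusted p = 0.433), and without it the value was 1.04 (adjusted p = 0.0785). Leaving out STAT6-/- replicate 3 gave 0.17 (adjusted p = 0.845).

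Ltc4s, which makes leukotriene C4, pointed the other way, at 1.21, 1.83 and 3.23 CPM in STAT6-/- and 2.25, 3.66 and 4.54 in WT. The groups overlapped (log2 fold change -0.74 ± 0.47 SE, 0.28 to 1.28 times WT, adjusted p = 0.271), and the gene had only 26 to 80 expected counts per library. Its transcripts were divided unevenly: all 35 counts of STAT6-/- replicate 2 went to the noncoding transcript NR_132732, and in STAT6-/- replicate 3 the coding transcript NM_008521 took 61.1%. In the other 4 libraries NM_008521 took 100%. Alox5ap showed a similar split in the same library, where 38.9% of 74 counts went to its second transcript, NM_001308462. At these depths the estimated division between transcripts is uncertain, and the gene totals are the firmer values.

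Alox5, Alox5ap, Ltc4s and Hpgds are known from myeloid and mast cells, whose markers were read beside them. Of all tested genes, 11.4% rose, 11.5% fell and 40.3% had an unadjusted p under 0.05. Without overlap between groups, 22% lay higher and 24.5% lower in STAT6-/-. The macrophage and monocyte markers, with Lyz2 the most abundant by FPKM (the gene named first in each list here), summed to 1640, 617 and 1400 CPM in STAT6-/- replicates 1, 2 and 3 and 500 to 740 in WT. Of these 10 genes Cd14 was higher, and it alone did not overlap between groups. An unadjusted p under 0.05 was found for 4 of the 10. The neutrophil markers, led by Ly6g, summed to 666, 459 and 1410 CPM against 284 to 399. Retnlg of 7 tested was higher, and 3 had an unadjusted p under 0.05. Ly6g made up most of that sum, at 581, 437 and 1310 CPM against 267 to 359. In WT replicate 2 it stood at 359 CPM, with S100a8 at 0.248, S100a9 at 0.62, Csf3r at 1.3 and Cxcr2 at 8.87. The sum thus follows Ly6g and cannot be read as a level of neutrophil RNA. The groups did not overlap in Ly6g and Retnlg, and overlapped in S100a8, S100a9, Csf3r, Cxcr2, Mmp9 and Camp. Alox5ap, the macrophage and monocyte sum and the neutrophil sum, which is mostly Ly6g, were lowest in replicate 2 among the STAT6-/- libraries. The mast cell markers, led by Mcpt1, summed to 109, 46.4 and 40.6 CPM against 37.1 to 51.3, with none of 7 tested called. The 1 at an unadjusted p under 0.05 was Tpsb2, lower in STAT6-/- (log2 fold change -1.90), where Mcpt1 pointed the other way (1.91). The tuft cell markers, led by Dclk1, summed to 13.9 to 21.6 CPM against 16.9 to 20.9 with none of 3 tested called or under that unadjusted p, and Il25 had no counts in STAT6-/-. Eosinophil markers reached 11.1 CPM at most, with the eotaxin receptor Ccr3 of 4 higher. Ear2 was the most abundant of them, and Ear1 had no counts in STAT6-/-. Platelet markers, led by Pf4, summed to 10.8 to 18.2 CPM against 19 to 23.7, with none of 3 tested called. Of the 2 at an unadjusted p under 0.05, Pf4 was lower and Gp1bb higher in STAT6-/-, each without overlap between groups. Ppbp, too low to be tested, gave 9.17 CPM of the sum in WT replicate 1 and 0.993 or less in every other library. Gp9 had no counts in STAT6-/-. The fibroblast markers, led by Dcn, summed to 909 to 3590 against 2230 to 6160, with Lum of 6 lower and 2 at an unadjusted p under 0.05. The part of these cells in the values of the 10 genes was not tested.

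The order of the 10 genes by mean FPKM showed few sharp steps. In WT, Hpgd was followed by Ptges2, Ptgs1 (8.53 ± 0.462), Alox5ap (6.87 ± 3.06), Ltc4s (5.2 ± 1.87), Hpgds (3.94 ± 0.75), Ptger4 (3.26 ± 0.35), Ptges (3.1 ± 0.496), Ptgs2 (1.68 ± 0.312) and Alox5 (0.873 ± 0.437). From Ptgs1 to Ptges each gene's range overlapped that of the next, as did those of Ptgs2 and Alox5. In STAT6-/- Ptger4 moved from the seventh to the fourth place, at 7.92 ± 2.73 FPKM, between Alox5ap (10.9 ± 6.32) and Ptgs1 (7.78 ± 2.33), with ranges that overlapped both. Ptgs2 (1.74 ± 1.19) and Alox5 (1.41 ± 0.209) were again last. The spread between libraries, taken as the range in log2 CPM, was wider in STAT6-/- than in WT for 9 of the 10 genes, Alox5 being the exception. The share of all genes with a wider range was not counted. Over all tested genes the STAT6-/- libraries were also less alike, with Spearman correlations of 0.94 to 0.953 against 0.976 to 0.99 within WT.

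The genes most like each called member over the 6 libraries were found by Pearson's correlation in log2 CPM among 13062 candidates. For Hpgd they were Polr1c, Aqp11 and Cyb5a (r = 0.999 each), all 3 lower in STAT6-/-. For Ptger4 they were Srxn1 (0.998), Tinagl1 and Cyth1 (0.997 each), all 3 higher. With 2 groups of 3 libraries the difference between groups sets most of such a correlation.

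The rest of the eicosanoid pathway was read from 7 lists with 59 genes, 50 of them tested. Of these, 6 rose and 7 fell, or 26%, near the 22.9% of all tested genes, with a median log2 fold change of -0.02. The groups did not overlap in 8 genes upward and 13 downward of 50, against 22% and 24.5% of all tested genes.

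Phospholipases A2 free arachidonate. Of 13 tested, 4 rose and none fell, where 11.4% of all tested genes rose and 11.5% fell. The groups did not overlap in 5 upward and in 2, Pla2g4a and Pla2g10, downward, against 22% and 24.5% of all tested genes. The secreted Pla2g2a stood at 1350, 953 and 244 CPM against 1.76 to 4.16, 255-fold higher by the fit (adjusted p = 0.00873). The secreted Pla2g5 stood at 68.5, 35.9 and 15.1 CPM against 1.53 to 2.84 (18.9-fold, adjusted p = 0.011), the secreted Pla2g3 at 11.1, 21 and 24.4 against 4.03 to 6.03 (3.97-fold, adjusted p = 0.0151) and the cytosolic Pla2g4c at 9.47, 1.67 and 2.59 against 0.177 to 0.397 (16.3-fold, adjusted p = 0.0199). Pla2g4a, the calcium-activated enzyme that feeds the cyclooxygenases in most cells, did not follow them. It stood at 47, 33.2 and 38 CPM against 51.2, 66.8 and 58.5 without passing the test (log2 fold change -0.58 ± 0.18 SE, adjusted p = 0.0558), although its groups did not overlap. Without WT replicate 2 or WT replicate 3 all 4 risers lost their call, with adjusted p up to 0.0905, and Pla2g4c also lost it without WT replicate 1 and with limma on log2(FPKM + 1), where its log2 fold change was 1.02 (adjusted p = 0.0826). The folds of Pla2g4c and Pla2g5 leaned on STAT6-/- replicate 1: without it their log2 fold changes went from 4.03 to 2.95 and from 4.24 to 3.64.

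Of 7 other prostanoid synthases tested, 3 fell and none rose, where 11.5% of all tested genes fell and 11.4% rose. Prxl2b, which makes prostaglandin F2 alpha from prostaglandin H2, stood at 5.37, 9.29 and 8.36 CPM against 26.8, 26.5 and 27.8 (3.52-fold lower, log2 fold change -1.82 ± 0.24 SE, adjusted p = 0.00971). Akr1b3, the aldose reductase that also makes prostaglandin F2 alpha, stood at 76.2, 82.5 and 47.6 CPM against 146, 173 and 156 (2.3-fold lower, adjusted p = 0.0168). Gstm2, a glutathione transferase and the most abundant of the list by FPKM, was 2-fold lower (adjusted p = 0.0256). Ptgis, the prostacyclin synthase (log2 fold change -1.30, adjusted p = 0.102), and Tbxas1, the thromboxane synthase of platelets and macrophages (1.36, adjusted p = 0.142), overlapped between groups. Without WT replicate 2 or WT replicate 3 the calls of Prxl2b, Akr1b3 and Gstm2 were lost, with adjusted p up to 0.104, and that of Gstm2 also without STAT6-/- replicate 1, STAT6-/- replicate 3 or WT replicate 1.

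Of 7 genes of prostaglandin transport and further breakdown, 1 rose and 1 fell, where 11.4% of all tested genes rose and 11.5% fell. Slco2a1, the transporter that carries prostaglandins into cells, rose from 104, 104 and 90.1 CPM in WT to 142, 174 and 164 (1.61-fold, adjusted p = 0.024). Ptgr2, a reductase that acts on the product of Hpgd, fell to 45, 69.8 and 40 CPM from 91.1, 107 and 101 (1.93-fold lower, adjusted p = 0.0283). Both calls were lost without any 1 WT library and after correction for GC content and length. That of Ptgr2 was lost without STAT6-/- replicate 1 or 3 as well, with adjusted p up to 0.111.

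No other leukotriene enzyme or transporter of 8 tested was called in the reported fit of all 6 libraries. An unadjusted p under 0.05 was found for 2 of the 8, against 40.3% of all tested genes. The most abundant, Mgst3, a microsomal glutathione transferase, stood at 218, 522 and 416 CPM against 806, 803 and 753 (log2 fold change -1.03 ± 0.32 SE, adjusted p = 0.056), and was called lower in 6 of 19 other settings: library size only, upper quartile scaling, DESeq2, limma on FPKM with either pseudocount, and without STAT6-/- replicate 2. Lta4h, which makes leukotriene B4, stood at 47.8, 54.5 and 43.1 CPM against 53.8, 56.9 and 43.8 (-0.09 ± 0.16 SE, 0.726 to 1.22 times WT, adjusted p = 0.706). Of 4 tested receptors of leukotrienes and lipoxins none was called and 2 had an unadjusted p under 0.05. One was the leukotriene B4 receptor Ltb4r1, at 3.27, 1.72 and 3.44 CPM against 0.931 to 1.54 (1.18, adjusted p = 0.0742), and the other Fpr2, a receptor of myeloid cells, at 9.61, 0.627 and 4.92 against 0.682 to 1.13 (2.45, adjusted p = 0.0821), which DESeq2 and the fit without STAT6-/- replicate 2 (3.00) called higher. Leaving out STAT6-/- replicate 1 gave 1.60 (adjusted p = 0.218), and with limma-voom at 1.78 (adjusted p = 0.271).

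Among other lipoxygenases and epoxide hydrolases 2 of 5 tested fell and none rose, where 11.5% of all tested genes fell and 11.4% rose. Ephx2, the soluble epoxide hydrolase of arachidonate epoxides, stood at 6.67, 14.9 and 13 CPM against 23.9, 30.3 and 30.8 (2.46-fold lower, adjusted p = 0.0291), and lost its call without any 1 WT library, with adjusted p up to 0.113. Ephx1, the microsomal enzyme, was near the threshold (1.88-fold lower, adjusted p = 0.0492) and failed it in 15 of 19 other settings. Alox15, an enzyme that interleukin-4 and interleukin-13 induce in macrophages, stood at 7.79, 3.5 and 5.55 CPM in STAT6-/- and 0.887, 9.68 and 10.6 in WT, so WT replicate 1 was below every other library (log2 fold change -0.32 ± 0.78 SE, 0.222 to 2.87 times WT, adjusted p = 0.779).

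**Figure D3:**
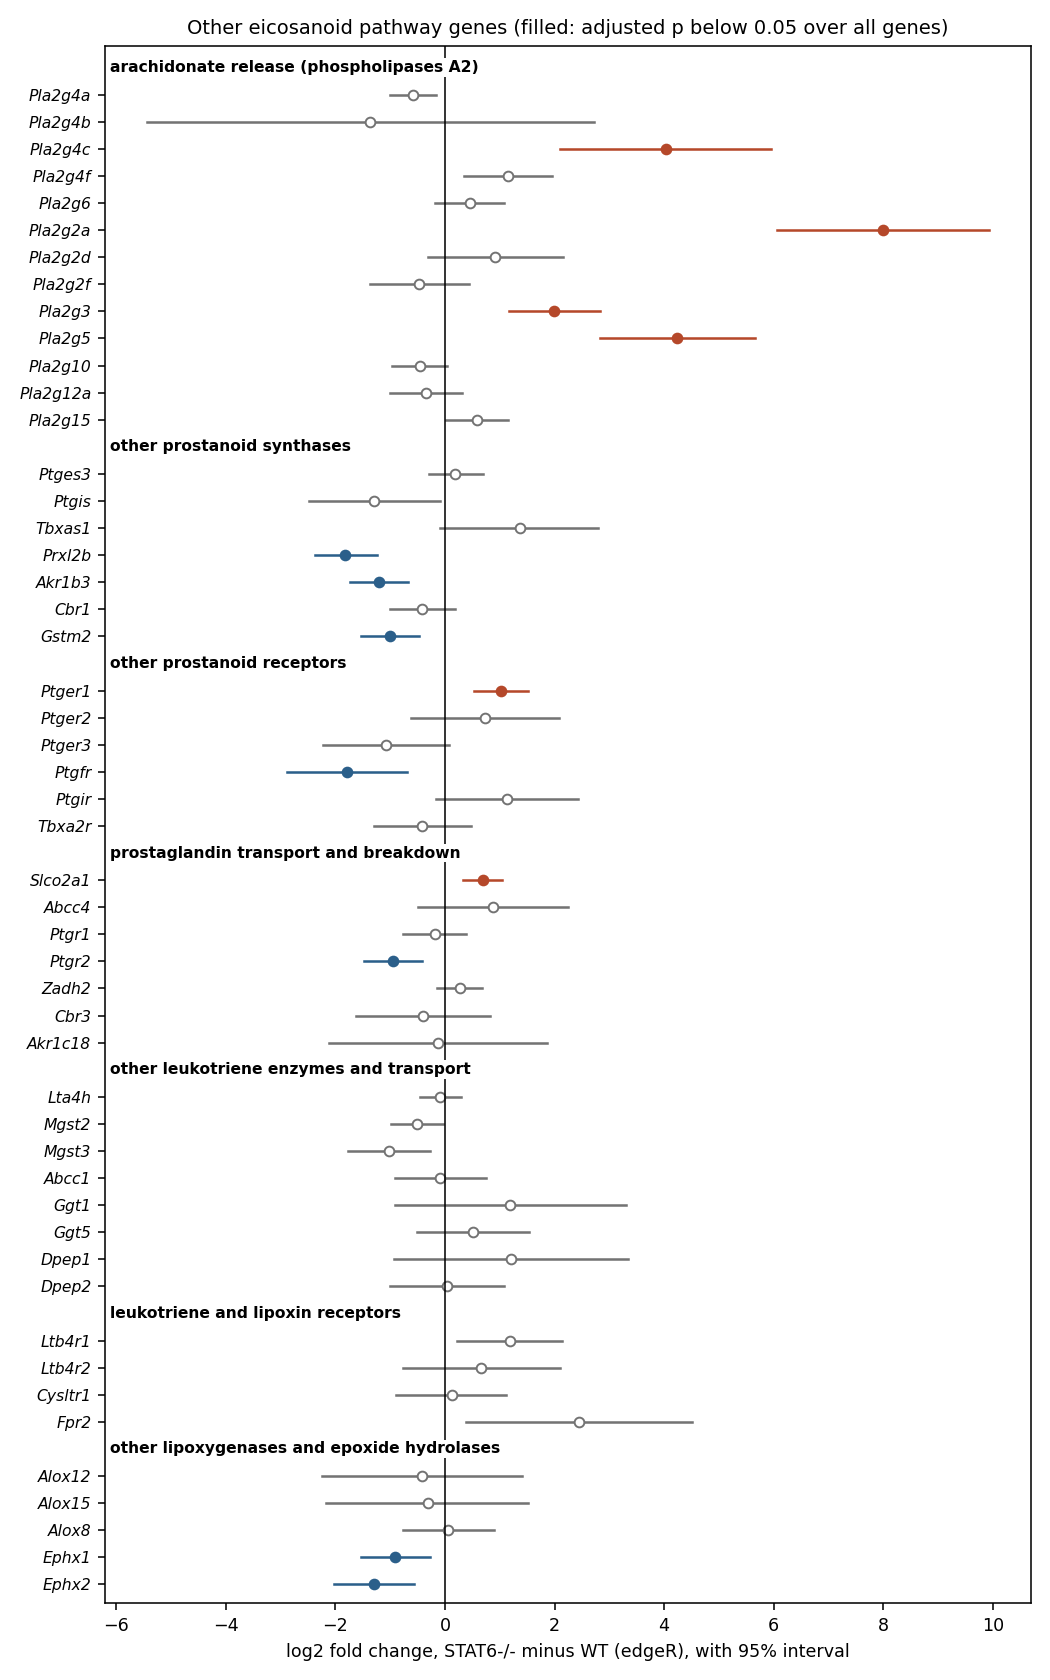
Log2 fold change of STAT6-/- against WT with 95% intervals from edgeR (x axis) for the 50 tested genes of the 7 other pathway lists, named by list. Filled points passed at an adjusted p below 0.05, 6 to the right of 0 and 7 to the left, and Pla2g2a, Pla2g5 and Pla2g4c lie farthest to the right.

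**Figure D4:**
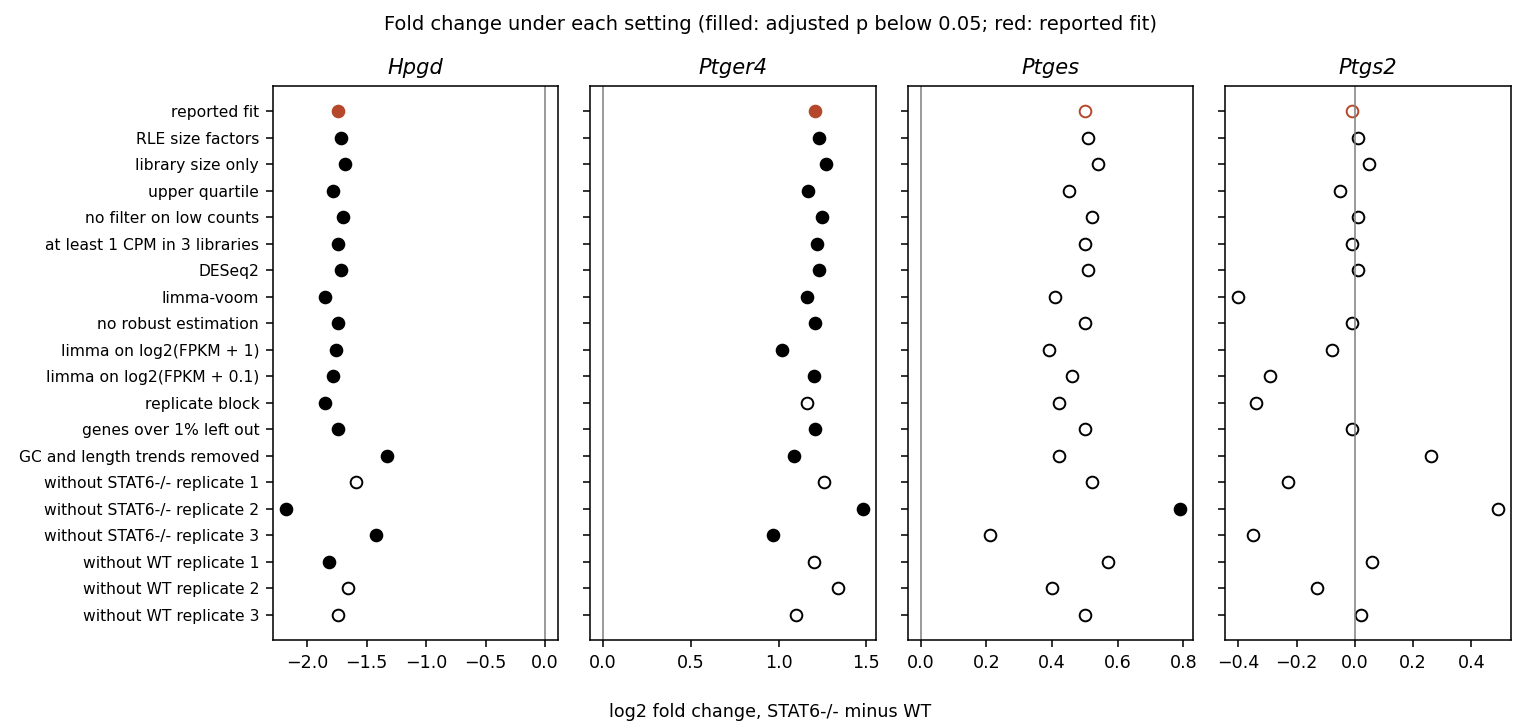
Log2 fold change of Hpgd, Ptger4, Ptges and Ptgs2 (x axes, one scale per gene) in the reported fit (red) and 19 other settings, with points filled at an adjusted p below 0.05. Hpgd stayed between -2.18 and -1.33 and Ptger4 between 0.97 and 1.48, while Ptgs2 lay on both sides of 0, between -0.40 and 0.49.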

How the data were processed

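Colon RNA of 3 STAT6-/- and 3 WT libraries was compared. The authors deposited expected counts, estimated read numbers per RefSeq transcript, and FPKM, which the authors normalised for the length of the transcript and the size of the library. The submitters' processing notes list Bowtie2 2.2.5 and RSEM 1.2.12, with mm10 as the build. Transcripts under 0.01 FPKM are not listed and were taken as 0. Strand use in the counting is not given in the sources used here.

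Expected counts and FPKM were summed per gene. Of 28238 transcripts, 27986 took a symbol from the RefSeq table of GRCm38.p6, 149 from GENCODE M21, and 103, with 0.167% of the counts, stayed as separate entries. Counts were rounded and tested with edgeR 4.0.16 (R 4.3.3): TMM, filterByExpr, robust quasi-likelihood F test, Benjamini-Hochberg adjustment over the 15066 tested genes, threshold 0.05. Every adjusted p is from edgeR unless another tool is named. "Rose" and "fell" are used of genes that passed. The SE is the size of the log2 fold change over the square root of F. The fits were tested on simulated data. Alternatives used limma 3.58.1 and DESeq2 1.42.0. Promoters are RefSeq's, one further motif is not reported here, and figures were drawn with matplotlib 3.10.9.

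The 10 genes and the lists were chosen with earlier results of these data known. All 10 were named. Of each other pathway list the genes past the threshold (up to 4) and the most abundant were named, of each marker list the most abundant and those without counts, and further genes were chosen after their values were seen.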

Additional observations from a re-analysis of the deposited data

How the results depend on the processing

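The reported fit called 1718 genes higher and 1731 lower in STAT6-/-, and 1 of the 10 eicosanoid genes in each direction. DESeq2 called 2686 genes higher and 2337 lower. Leaving out each library in turn gave 12 to 2750 genes higher and 6 to 2440 lower, the lowest without WT replicate 3 (21 and 10 without WT replicate 2) and the highest without STAT6-/- replicate 2. It gave 0 to 2 of the 10 genes higher and 0 to 1 lower. The cause was not tested. Over 19 other settings and the 10 genes, 171 values kept their direction and side of the threshold, 8 lost a call and 1, Ptges without STAT6-/- replicate 2, gained one. The other 10 changed sign. Ptgs2 (reported -0.01) was 0.01 with RLE size factors, 0.05 with library size only, 0.01 with no filter, 0.01 with DESeq2, 0.26 with GC and length trends removed (added after seeing the data), 0.49 without STAT6-/- replicate 2, 0.06 without WT replicate 1 and 0.02 without WT replicate 3. Ptgs1 was 0.04 without STAT6-/- replicate 2 and Ptges2 0.09 without STAT6-/- replicate 3. With single libraries left out, Ptgs1 ran from -0.40 to 0.04, Ptgs2 from -0.35 to 0.49 and Ptges2 from -0.40 to 0.09. With the replicate number as a block, 0 of the 10 genes were called higher, Ptger4 having an adjusted p of 0.0688, Ptgfr and Ephx1 lost their calls (0.0536 and 0.0889), and 1219 and 1445 genes were called higher and lower. Same-numbered libraries deviated together only weakly (correlations of 0.02, 0.04 and 0.13). STAT6-/- replicates 1 and 3 correlated best with the WT library of their own number, and replicate 2 with WT replicate 1 (0.05 against 0.04). Such small values, from deviations within groups of 3, cannot decide on pairing. The labels give no pairing, and the numbers were not taken as pairs. Depth limits Ltc4s (26 to 80 counts per library) and Alox5 (27 to 86).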
